A study of Mus musculus with 6 samples.

Results

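Messenger RNA of the potassium channel genes was compared between mouse melanomas labelled as vector control and as knockout of ATM, a kinase of the DNA damage response. The family holds every protein-coding gene whose symbol starts with Kcn, continues with lower-case letters and then a digit, which gave 93 of 22028 protein-coding gene rows (55536 gene rows in all). Membership itself was set by name and biotype alone. The family as a subject was chosen by the measured values of 1 member, Kcnj13, whose difference between the genotypes had already been seen in these tumors, so the values of Kcnj13 are given below as a description with no test. The 6 tumors grew under the skin of C57BL/6J mice from about 100000 injected B16 cells, a melanoma line of that strain, and were collected on day 13. The injected cells carried the control vector in 3 tumors and an ATM knockout in the other 3, numbered 1 to 3 within each group. The sources used here do not state how ATM was disrupted, whether the cells were a clone or a pool, or how many mice the tumors came from. The p-values below therefore measure the spread between these tumors, which carry an unedited host stroma, and genotype and cell population cannot be told apart.

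Potassium channels let potassium ions leave or enter a cell along their gradient and so set its resting voltage, its volume and the driving force for calcium entry. A pore is built of subunits that place a short, conserved selectivity filter at its narrowest point, and families differ in what opens it: inward rectifiers (Kcnj) pass current best near and below the resting voltage, voltage-gated channels (Kcna to Kcnd, Kcnq, Kcnh) open on depolarisation, tandem-pore channels (Kcnk) leak, and calcium- or sodium-activated channels (Kcnma, Kcnn, Kcnt, Kcnu) follow ion levels inside the cell. Silent modifiers (Kcnf, Kcng, Kcns, Kcnv) act only when assembled with other voltage-gated subunits, and auxiliary subunits (Kcnab, Kcne, Kcnip, Kcnmb) line no pore. Kcnj13, the marker of the family here, encodes an inward rectifier best known in the retinal pigment epithelium and the choroid plexus.

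The filter is visible in the coding sequence. A search of the longest complete coding sequence of each gene (GENCODE M21, GRCm38) for the signature of threonine or serine, any residue, glycine, then tyrosine, phenylalanine or leucine, then glycine found it in all 77 pore-forming members and in none of the 16 auxiliary subunits, against 5.37% of 21769 protein-coding genes searched in the same way. The 45-base stretches below are those of members on which the results turn. They are written 5′ to 3′ on the coding strand with the 5 signature codons in capitals. All meet the signature, with codons and in part residues that differ between genes.
Kcnj13: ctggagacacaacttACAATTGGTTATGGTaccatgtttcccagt
Kcnj11: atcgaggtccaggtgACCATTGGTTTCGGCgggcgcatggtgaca
Kcnk2, first pore: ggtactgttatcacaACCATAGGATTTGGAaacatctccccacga
Kcnk2, second pore: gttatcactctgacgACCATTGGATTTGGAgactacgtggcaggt
Kcnn4: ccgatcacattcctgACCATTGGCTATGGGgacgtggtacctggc
Kcnc4: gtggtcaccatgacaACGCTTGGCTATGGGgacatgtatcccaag

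Codons 119 to 123 of Kcnj13 hold its signature, and the stretch lies at chr1:87389006-87389050, minus strand, within 1 coding exon. The others lie at chr7:46099481-46099525 (Kcnj11, minus strand), chr7:24379183-24379227 (Kcnn4, plus strand) and chr3:107447784-107447828 (Kcnc4, minus strand), each within 1 exon. Those of Kcnk2 (chr1:189258876-189295615 and chr1:189243025-189256610, minus strand) each cross an exon junction. Kcnk2, as a tandem-pore gene, carries the signature at codons 157 to 161 and again at 266 to 270. The fourth codon of the signature is TAT (tyrosine) in Kcnj13, Kcnn4 and Kcnc4, TTC (phenylalanine) in Kcnj11 and TTT (phenylalanine) in both pores of Kcnk2.

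The 250 bases before the annotated start of Kcnj13 (RefSeq, GRCm38.p6, chr1:87394730-87394979, minus strand) are printed because this gene had the largest difference in the family.
Kcnj13 promoter: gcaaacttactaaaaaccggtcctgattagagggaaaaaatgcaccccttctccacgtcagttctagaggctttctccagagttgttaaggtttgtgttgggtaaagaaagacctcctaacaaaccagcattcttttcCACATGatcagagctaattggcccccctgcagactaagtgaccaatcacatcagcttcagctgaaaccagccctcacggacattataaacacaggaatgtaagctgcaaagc

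Capitals mark the only match to either of 2 E-box words searched on both strands, CATGTG (printed here as CACATG, its reverse complement, from base -112) and the palindrome CACGTG; the words do not overlap each other. E-boxes of this kind are bound by MITF, the master regulator of pigment cells, among other factors. CATGTG occurs in 12.3% and CACGTG in 6.02% of 32851 RefSeq promoters cut to the same 250 bases, so the match describes the sequence and is not a mapped site.

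Libraries held 22101124 to 29037715 counts on genes. Counts were expressed relative to the library total (CPM) after TMM scaling, and 31 of the 93 members had enough counts to be tested, as had 15696 genes in all. None of the 31 passed the filter through 1 genotype alone. Skeletal muscle markers (10 genes summed) differed most between single tumors: controls 1 to 3 were at 23.0, 72.7 and 8052 CPM and knockouts 1 to 3 at 2935, 7972 and 669 CPM. The sum of 7 melanocyte markers spanned 18811 to 27174 CPM among controls and 18822 to 19058 CPM among knockouts. Single pigment cell genes went in different directions. Dct had 10412, 8045 and 7107 CPM in controls 1 to 3. Its values in knockouts 1 to 3 were lower, at 5024, 5150 and 5063 CPM (log2 fold change -0.75 ± 0.15, edgeR adjusted p = 0.0434). Mlana had a log2 fold change of -0.40, Mitf of 0.15, Tyr of 0.15 and Pmel of 0.06, none passing. Atm itself was at 95.5 to 111 CPM in control and 97.2 to 132 CPM in knockout tumors, which does not check the labels, since counts over the whole gene need not show a disruption whose place is unstated.

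The members differed widely in abundance. Per kilobase of exon, the mean level over the 6 tumors was highest for Kcnj13 (34.4 CPM per kb), Kcnab2 (19.1) and Kcnn4 (4.24), followed by Kcne3 (2.20), Kcnk2 (1.99) and Kcnk6 (1.76). Further members among the highest 12 were Kcna5 (1.40), Kcnk13 (1.37), Kcnq5 (1.17), Kcnj2 (1.05), Kcnj8 (0.832) and Kcnc4 (0.716). The place of Kcnj13 came from the knockout tumors: at 2.31 CPM per kb the control mean of Kcnj13 was below that of Kcnab2 (20.2), Kcnn4 (4.97), Kcne3 (2.88) and Kcnk2 (2.80), and at 66.4 CPM per kb its knockout mean was above that of every other member. Of the 62 members not tested, 12 had no count in any library and the other 50 had at most 58 counts over the 6 libraries together. None of the 10 silent modifiers and none of the 8 ether-a-go-go channels (Kcnh) was tested.

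**Figure D1:**
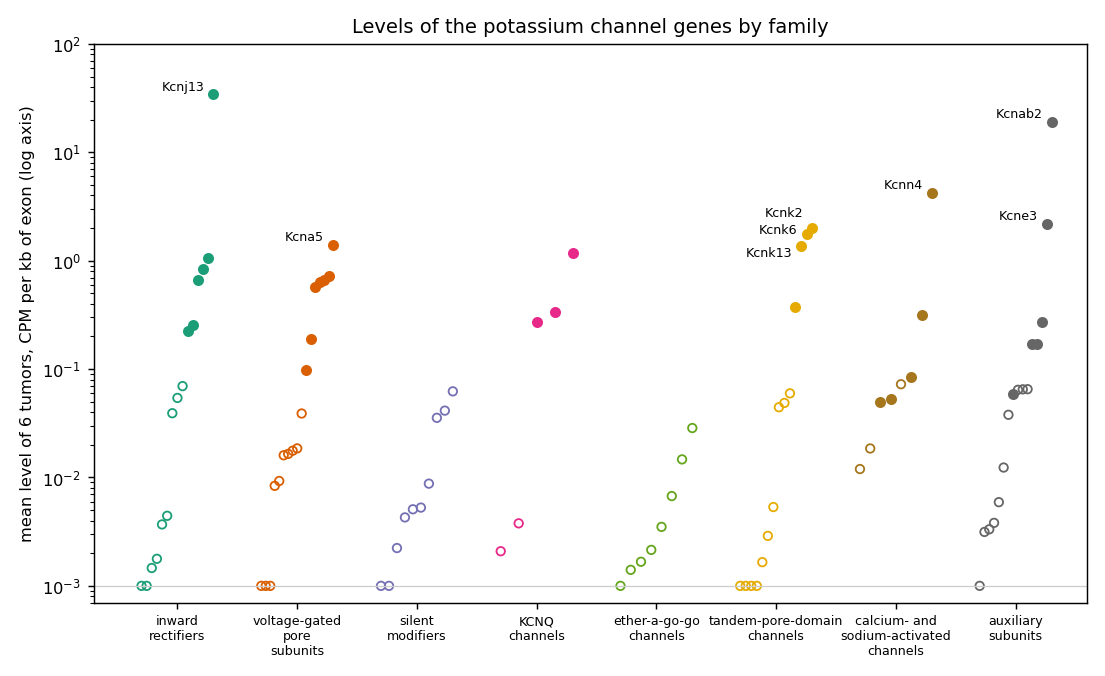
Mean level of each of the 93 potassium channel genes over 6 tumors, in CPM per kb of exon on a log axis, by family; filled points are the 31 tested genes, open points the 62 not tested, and the 13 genes below 0.001 CPM per kb are drawn on the grey line. Kcnj13 and Kcnab2 stand above 10 CPM per kb, and no silent modifier or ether-a-go-go channel is filled.

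Kcnj13 was low in every control tumor and high in every knockout tumor. It had 89, 20 and 95 counts in vector control tumors 1, 2 and 3 (3.94, 0.914 and 3.93 CPM) and 2649, 1694 and 2451 counts in ATM knockout tumors 1, 2 and 3 (109, 60.6 and 83.9 CPM). The groups were far apart, the lowest knockout value lying well above the highest control value. Means were 2.93 ± 1.74 and 84.4 ± 24.0 CPM (SD, n = 3 per group), a fitted log2 fold change of 4.84 ± 0.57 (SE), or 28.6-fold. Values between 4.45 (without vector control tumor 2) and 5.30 (without vector control tumor 3 and ATM knockout tumor 2 together) were fitted under the alternatives. In whole tumors a change in the number of expressing cells and a change in RNA per cell cannot be told apart.

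Kcnj13 (chromosome 1, 87386363 to 87394729, minus strand) lies inside Gigyf2, a gene of translational repression on the opposite strand. Of its 1270 exon bases 623 (49.1%) are also annotated as exon of Gigyf2, and whether reads were counted by strand was not stated. Gigyf2 was at 112, 109 and 102 CPM in the control tumors and 97.4, 103 and 102 CPM in the knockout tumors, a log2 fold change of -0.10 ± 0.07 (edgeR adjusted p = 0.425), with knockout values in or just below the control range. Within 5 Mb on either side, 66 other tested genes had a median log2 fold change of -0.05. Of the markers of retinal pigment epithelium and choroid plexus, Rpe65 had 1 count in 1 control tumor and none elsewhere, and Ttr, Best1 and Lrat were at no more than 0.143, 0.366 and 0.497 CPM in any tumor. Rlbp1, which made up most of the sum, was at 2.43, 1.65 and 1.57 CPM in controls 1 to 3 and 2.95, 3.58 and 2.12 CPM in knockouts 1 to 3, with overlapping groups (log2 fold change 0.61 ± 0.30, edgeR adjusted p = 0.283). The 5 markers summed to 2.24 to 2.70 CPM in control and 2.50 to 4.22 CPM in knockout tumors.

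Kcnj13 made up 2.09%, 0.423% and 1.53% of the summed CPM of the 93 members in controls 1 to 3 and 37.7%, 23.3% and 29.8% in knockouts 1 to 3. The other 92 members together summed to 184, 215 and 254 CPM in the control tumors and 180, 199 and 198 CPM in the knockout tumors, with overlapping groups.

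Among the 30 other tested members no gene passed edgeR's quasi-likelihood test at an adjusted p below 0.05. With Kcnj13, which was chosen by this contrast, the count is 1 of 31 beside 4.96% of all 15696 genes in either direction, and nothing is read from it. Leaving out control tumor 3, knockout tumor 1 and knockout tumor 2 in turn gave a count of 0 each time. At an unadjusted p below 0.05, 2 of the 30 were lower and 0 higher (12.3% of all genes were lower at that threshold): Kcnk2 and Kcnn4. DESeq2 called the same 2 as lower, among 27 of these members with an adjusted p (6.97% of all genes with one were called lower), and limma-voom called Kcnk2 (2.41% of all genes called lower). Fold changes of the 30 ran from -1.24 to 1.57. Of the 31, 19 were above 0 and 12 below, where 49.1% of all genes tested were above 0. The median over the 31 was 0.31, beside -0.01 over all genes tested. The median of the members was -0.29 without ATM knockout tumor 2 and 0.51 without vector control tumor 3, so its sign depended on single tumors. The 3 knockout values lay all above or all below the 3 control values in 5 of 31 members, Kcnj13 included, beside 29.7% of all genes tested.

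**Figure D2:**
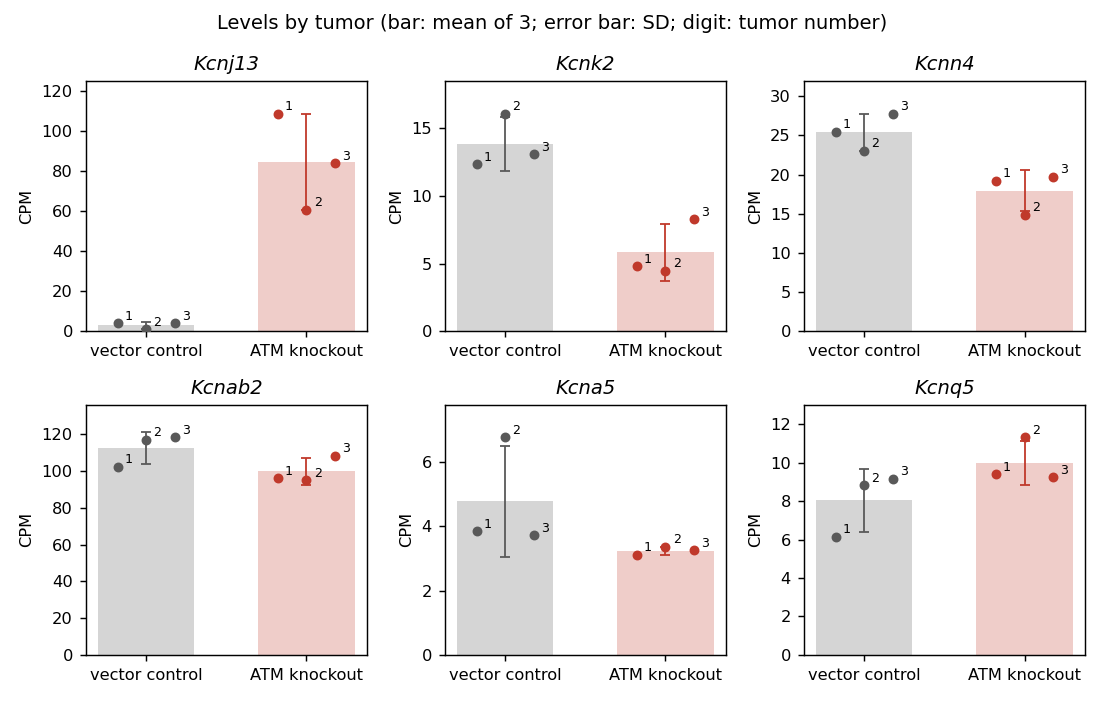
Levels of 6 potassium channel genes in CPM (vertical axes from 0) by tumor, with bars for the mean of 3 tumors, error bars for the SD and digits for the tumor number. Kcnj13 is above 60 CPM in the knockout tumors and below 4 CPM in the control tumors, Kcnk2 and Kcnn4 are lower in all 3 knockout tumors, and Kcnab2 overlaps.

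Kcnk2, a mechanically gated leak channel of the tandem-pore family (chromosome 1, 189207930 to 189402273), showed the next clearest separation. Its level was 12.3, 16.1 and 13.1 CPM in the control tumors and 4.80, 4.47 and 8.28 CPM in the knockout tumors. All knockout values were below all control values, ATM knockout tumor 3 being the closest to the control range. The log2 fold change was -1.24 ± 0.27 (means 13.8 ± 1.99 and 5.85 ± 2.11 CPM), with an edgeR adjusted p of 0.0529 that just missed the threshold. Across the alternatives its adjusted p ran from 0.00032 (DESeq2) to 0.229 (without vector control tumor 3 and ATM knockout tumor 2 together, log2 fold change -1.12), and it passed with limma-voom (0.0474), without a filter on low counts (0.0179) and without ATM knockout tumor 3 (0.0438, log2 fold change -1.57). Of its exon bases 12.2% are shared with the antisense gene A430027H14Rik, which itself had 1 count over all 6 libraries, and 57 other tested genes within 5 Mb had a median log2 fold change of 0.03.

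No other tested tandem-pore member separated the genotypes. Kcnk6, a leak channel found in macrophages among other cells, was at 2.83, 7.96 and 10.9 CPM in the control tumors and 6.19, 7.37 and 8.52 CPM in the knockout tumors (log2 fold change 0.02 ± 0.46). Vector control tumor 1 was the lowest, as it was for the sum of 6 macrophage markers (332 CPM there, 654 to 1008 CPM in the other 5 tumors); the part of those cells in the value was not tested. Kcnk13, a leak channel known from microglia, was at 3.10 to 5.75 CPM in control and 3.36 to 5.24 CPM in knockout tumors (0.02 ± 0.29), and its sign changed when vector control tumor 1 (-0.16), vector control tumor 2 (-0.02) and ATM knockout tumor 3 (-0.15) were left out in turn. Kcnk5, an acid-sensitive leak channel, was at 0.531, 0.960 and 1.45 CPM and 1.52, 1.36 and 1.75 CPM (0.65 ± 0.38, edgeR adjusted p = 0.379).

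Kcnn4 (chromosome 7, 24370263 to 24386690) encodes the intermediate-conductance channel that calcium-bound calmodulin opens, which keeps T cells and red cells hyperpolarised during calcium entry. It was at 25.4, 23.0 and 27.8 CPM in the control tumors and 19.2, 14.9 and 19.7 CPM in the knockout tumors, with no overlap. The log2 fold change was -0.50 ± 0.14 and the edgeR adjusted p 0.0915, with a range of 0.0242 (DESeq2) to 0.315 (without vector control tumor 3 and ATM knockout tumor 2 together) over the alternatives. T cell markers (6 genes summed) took the opposite direction, at 27.7 to 37.8 CPM in control and 38.1 to 81.6 CPM in knockout tumors, while erythroid markers (5 genes) ranged from 61.9 to 733 and from 8.88 to 454 CPM. Endothelial markers (5 genes) were lower in the knockout tumors, as Kcnn4 was, at 125, 140 and 114 CPM against 143, 152 and 245 CPM in the controls, without overlap. The part of these cells in the values of Kcnn4 was not tested. Without vector control tumor 3 and ATM knockout tumor 2 the log2 fold change of Kcnn4 was -0.31. Of the 4 other tested calcium- or sodium-activated members, named after their values had been seen, Kcnt2 had a log2 fold change of 0.59, Kcnma1 of 0.39, Kcnn1 of 0.22 and Kcnn3 of -0.91, none passing.

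No other tested inward rectifier separated the genotypes. Kcnj2, which holds the resting voltage of muscle and macrophages, was at 5.26, 4.48 and 9.77 CPM in the control tumors and 2.87, 6.37 and 5.61 CPM in the knockout tumors (log2 fold change -0.39 ± 0.41), and the sign changed without vector control tumor 3 (0.036). Kcnj8, the pore of the ATP-sensitive channel of pericytes and smooth muscle, was at 1.99, 3.43 and 2.53 CPM and 0.779, 1.47 and 2.53 CPM (-0.73 ± 0.45, edgeR adjusted p = 0.406). Its partner subunit Abcc9 was at 8.18, 14.8 and 27.9 CPM and 7.91, 22.1 and 7.97 CPM, so the pair ranked the tumors differently. Kcnj15, named after its values had been seen, was at 1.37, 2.10 and 2.32 CPM and 0.779, 1.68 and 1.40 CPM (-0.58 ± 0.36). The 9 untested inward rectifiers included Kcnj10, which at 58 counts over 6 libraries was the untested member with the most counts; Kcnn1 was tested at 59.

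Voltage-gated pore subunits were sparse, with 7 of 17 tested, of which 6 had a positive log2 fold change and none passed. Kcna5, a delayed rectifier of vascular muscle and macrophages, was at 3.85, 6.77 and 3.73 CPM in the control tumors and 3.12, 3.36 and 3.25 CPM in the knockout tumors. The knockout values lay just below the control range, and the log2 fold change of -0.56 ± 0.28 (edgeR adjusted p = 0.291) was -0.19 without vector control tumor 2. Kcna3, the delayed rectifier of T cells, was at 0.840, 1.05 and 0.787 CPM and 1.44, 0.966 and 1.47 CPM (0.53 ± 0.28, adjusted p = 0.323 with edgeR), with ATM knockout tumor 2 inside the control range, as it was nearest to that range for the T cell marker sum (38.1 CPM there); their part in the value was not tested. Kcnd1, an A-type channel, was at 2.17, 2.38 and 3.68 CPM and 4.47, 4.37 and 3.28 CPM (0.56 ± 0.27, adjusted p = 0.290 with edgeR).

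KCNQ channels carry slow, non-inactivating currents. Kcnq5 (chromosome 1, 21398403 to 21961942), a subunit of the M-current that restrains firing in neurons, was at 6.15, 8.82 and 9.15 CPM in the control tumors and 9.39, 11.3 and 9.24 CPM in the knockout tumors. The groups met without overlapping, and the difference of 0.31 ± 0.19 on the log2 scale did not pass (edgeR adjusted p = 0.405). Without vector control tumor 1 it was 0.15. Kcnq1, a channel of heart and epithelia, was at 2.08, 1.05 and 2.07 CPM and 0.779, 0.931 and 1.44 CPM (-0.72 ± 0.38, adjusted p = 0.320 with edgeR), while 94 other tested genes within 5 Mb had a median log2 fold change of 0.37.

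Auxiliary subunits held the most abundant member of the control tumors. Kcnab2, a cytoplasmic beta subunit of Kv channels with an aldo-keto reductase fold, was at 102, 117 and 118 CPM in the control tumors and 96.2, 95.1 and 109 CPM in the knockout tumors (log2 fold change -0.17 ± 0.09, edgeR adjusted p = 0.313). Of the knockout values only that of tumor 3 was above the lowest control value. Kcne3, a membrane-spanning partner that locks Kcnq1 open, was at 5.13, 4.12 and 6.13 CPM and 1.68, 1.83 and 4.65 CPM, ATM knockout tumor 3 again being within the control range (-0.91 ± 0.43, adjusted p = 0.274 with edgeR; -1.54 without that tumor). Of the 6 tested auxiliary subunits 4 had a negative and 2 a positive log2 fold change, and none passed.

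**Figure D3:**
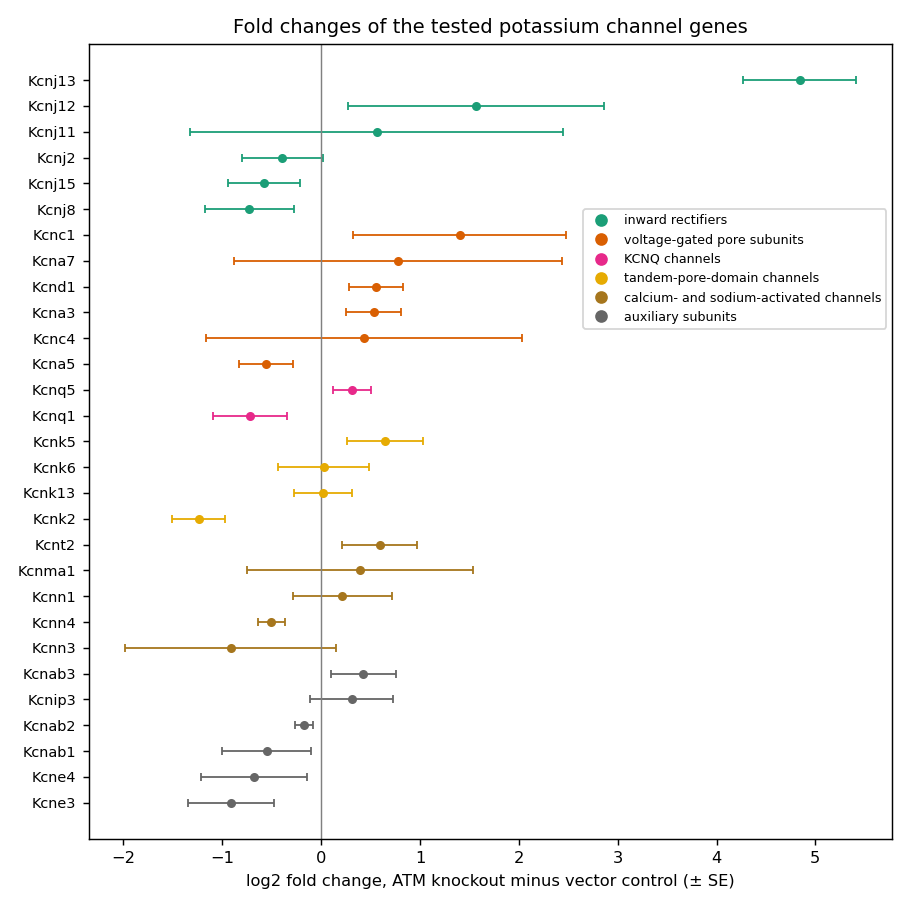
Log2 fold change (ATM knockout minus vector control, horizontal axis) with its SE for 29 of the 31 tested potassium channel genes, grouped and coloured by family. Kcnj13 stands alone at 4.84, the others lie between -1.24 and 1.57, and the widest error bars belong to Kcnj11, Kcna7 and Kcnc4.

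Several members varied more between tumors of a genotype than between genotypes. Kcnj11, the pore of the ATP-sensitive channel of skeletal muscle and beta cells (chromosome 7, 46093953 to 46100764), had 0, 0 and 141 counts in vector control tumors 1, 2 and 3 and 46, 175 and 15 counts in ATM knockout tumors 1, 2 and 3. Kcnc4, a fast Kv channel (chromosome 3, 107438303 to 107459552), was at 0.0885, 0.137 and 6.46 CPM and 2.26, 6.19 and 0.616 CPM, a 73.0-fold range. Kcna7, a Kv channel expressed in heart and skeletal muscle, had 1, 0 and 76 counts and 41, 101 and 7 counts.

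For all 3 genes vector control tumor 3 and ATM knockout tumor 2 were the highest, ATM knockout tumor 1 came next, ATM knockout tumor 3 was low and vector control tumors 1 and 2 were at or near 0, which is also how the skeletal muscle marker sum ranked the tumors apart from the order within the first pair and within the last. Their log2 fold changes between genotypes were 0.56 ± 1.88, 0.43 ± 1.60 and 0.78 ± 1.66, and each changed sign with single libraries left out and was highest without vector control tumor 3 (9.20, 4.70 and 6.09, fitted against control libraries at or near 0 and so no measure of size): Kcnj11 was at -0.73 and Kcnc4 at -0.66 without ATM knockout tumor 2, and Kcna7 at -0.19. Kcnj11 (-0.02 and -0.0085) and Kcnc4 (-0.13 and -0.11) also had the opposite sign when vector control tumors 1 and 2 were left out in turn.

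In 11 of the 31 tested members the 3 tumors with the most muscle marker RNA (vector control tumor 3 and ATM knockout tumors 1 and 2) were all above the other 3, as they were in 5.97% of all genes tested. Beside Kcnj11, Kcnc4, Kcna7 and Kcnd1 these included Kcnj12, Kcnc1, Kcnma1, Kcnn1 and Kcnip3, named after their values had been seen. Kcna7, Kcnj12, Kcnma1 and Kcnn1 reached the filter cutoff (minimum count 10, scaled to library size) in those 3 tumors alone. Being tested therefore fixed their order in advance, and the count of 11 includes them. The median log2 fold change was 0.56 in the 11 members and -0.45 in the 20 others. ATM knockout tumors 1 and 2 are among the 3 that define this split, which by itself favours a positive median in the 11. Kcnj12, an inward rectifier of muscle, had control counts of 2, 0 and 20 and knockout counts of 17, 54 and 5. Kcnma1, the large-conductance calcium-activated channel of muscle, was at 0.177, 0.183 and 1.82 CPM in the control tumors and 0.574, 2.08 and 0.239 CPM in the knockout tumors. Smooth muscle and pericyte markers (9 genes) were also highest in these tumors (568, 259 and 529 CPM against 104 to 142 CPM in the other 3), so the count does not set skeletal muscle apart from other contractile tissue, and the part of either in the members' values was not tested. Kcnj13 did not follow this order: it was low in vector control tumor 3 and high in ATM knockout tumor 3. Its choice by the genotype contrast in these tumors favoured such values, so nothing is read from them here.

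**Figure D4:**
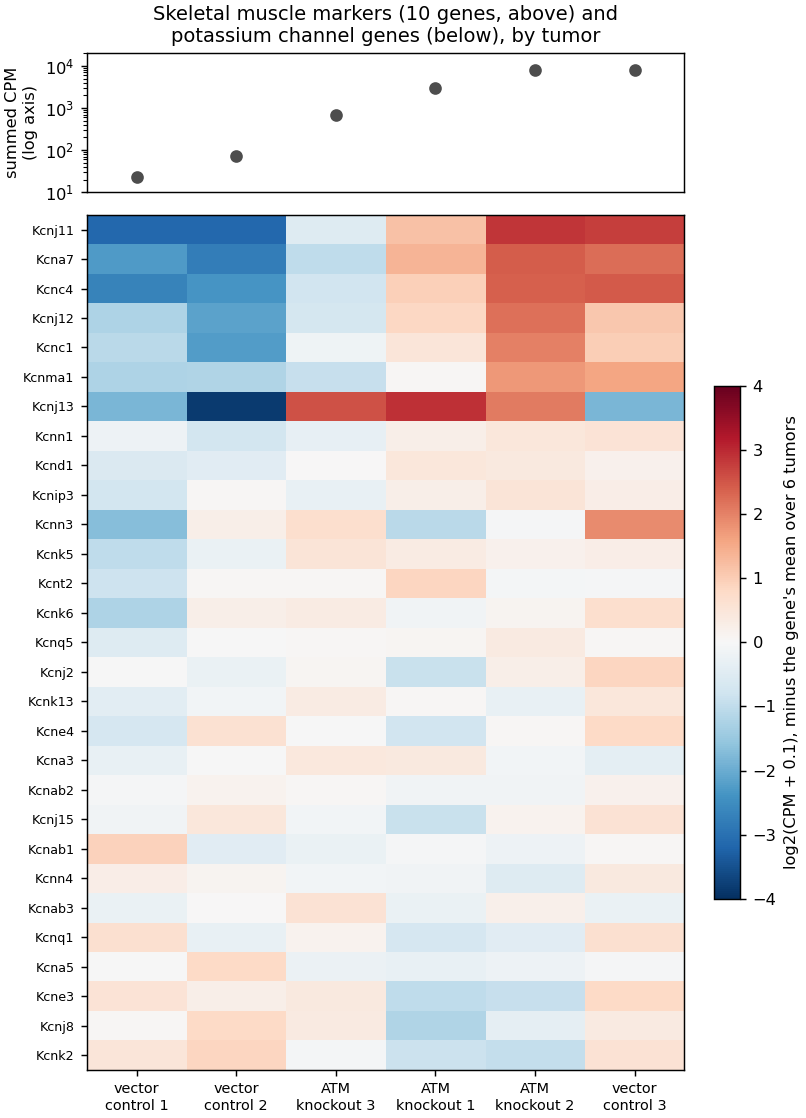
Summed CPM of 10 skeletal muscle markers (upper panel, log axis) and log2(CPM + 0.1) minus each gene's mean over 6 tumors (lower panel, colour) for 29 of the 31 tested potassium channel genes, with tumors ordered by the marker sum. Kcnj11, Kcna7 and Kcnc4 go from lowest in vector control tumors 1 and 2 to highest in ATM knockout tumor 2 and vector control tumor 3. Kcnj13, which was chosen by the genotype contrast, is high in the 3 knockout tumors alone.

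Outside the family, pumps, cotransporters, exchangers, related cation channels and partner subunits that handle potassium were read from a list of 50 genes, of which 30 were tested. 2 rose and 0 fell in edgeR (2.21% of all genes tested rose), 28 did not pass, and the median log2 fold change was 0.11. Slc24a4 (chromosome 12, 102128733 to 102267091), a sodium-calcium exchanger that also carries potassium, was at 29.7, 31.5 and 35.1 CPM in the control tumors and 53.9, 56.6 and 48.1 CPM in the knockout tumors. It rose by 0.72 ± 0.10 on the log2 scale (edgeR adjusted p = 0.0225). Slc9a8 (chromosome 2, 167421712 to 167477000), an exchanger of protons for sodium or potassium in the Golgi, was at 49.2, 50.2 and 54.8 CPM and 80.0, 77.7 and 65.7 CPM, and rose by 0.54 ± 0.10 (edgeR adjusted p = 0.0365). The groups overlapped for neither gene. In this list 2 genes passed with DESeq2 and with limma-voom as well, 4 passed without vector control tumor 1, and 0 passed when control tumors 2 and 3 and knockout tumors 1 and 2 were each left out.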

How the data were processed

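Total RNA of 6 tumors was sequenced, 1 library each. Unnormalized read counts for each gene were deposited by the authors; Trim Galore, cutadapt, STAR, SAMtools and HTSeq, with the builds GRCm38 and mm10, are named without versions or roles per the submitters' processing notes, and the strand setting was not given in the sources used here. Counter lines without a gene did not enter library sizes. Reads assigned to no counted feature were 16.7% to 18.2% and reads on several genes 1.21% to 1.38% of the reads listed. All 55536 gene identifiers matched GENCODE M21, the source of coordinates, exon lengths and coding sequences. No protein table was used. Some members and sequences are not reported here.

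Genes were filtered with filterByExpr (minimum count 10, minimum total 15), scaled by TMM and tested over all 15696 genes with the quasi-likelihood test of edgeR 4.0.16 (robust dispersions, genotype as the only term), with Benjamini-Hochberg adjusted p-values and a threshold of 0.05. Values are TMM-scaled CPM, mean ± SD of 3 tumors; log2 fold changes are ± SE, the fold change over the square root of its F statistic. The fit was tested on simulated data. Alternatives included DESeq2 1.42.0 and limma-voom (limma 3.58.1). Libraries of the same genotype differed by more than counting noise (chi-square over its degrees of freedom, 21.1 to 80.2).

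Members and lists were chosen with earlier results of these data known. Named are Kcnj13, members passing the test, the 12 with the highest level per length, the 10 not passing with the smallest p, and those with over 50-fold range at a mean of at least 1 CPM; others are said to be so, or are given by their value alone.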

Additional observations from a re-analysis of the deposited data

How the results depend on the processing

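Of 254 refits of the 17 named members other than Kcnj13, 236 kept the direction and the side of the threshold, 5 passed where the reported fit did not (Kcnk2 in 4, at -1.22 without a filter, -1.24 with DESeq2, -1.27 with limma-voom and -1.57 without ATM knockout tumor 3; Kcnn4 with DESeq2 at -0.50), and 13 changed sign, each with 1 library left out. Without single libraries Kcnj11 ran from -0.73 to 9.20 (also -0.02 and -0.0085), Kcnc4 from -0.66 to 4.70 (also -0.13 and -0.11), Kcna7 from -0.19 to 6.09, Kcnj2 from -0.63 to 0.036, Kcnk13 from -0.16 to 0.32 (also -0.02 and -0.15) and Kcnk6 from -0.36 to 0.46 (also -0.09). The cause was not tested.

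Over all genes, 778 passed, 1915 with DESeq2, 1699 at a threshold of 0.10, 2 to 1209 without single libraries, and 0 without vector control tumor 3 and ATM knockout tumor 2 together, a fit chosen after seeing the data. With library size as the only scaling 58.6% of calls were higher in knockout tumors, against 44.6%. Counted with Kcnj13, which was chosen by this contrast, so that nothing is read from these counts, 1 potassium channel gene passed, 3 with DESeq2 and at the threshold of 0.10, 2 with limma-voom, 0 to 1 without single libraries and 0 without both tumors; Kcnj13 was not among the calls without a filter or without ATM knockout tumor 3. Kcnj13 aside, 0 passed, 2 with DESeq2 and at the threshold of 0.10, 1 with limma-voom and without a filter, and 0 to 1 without single libraries. Of the transport and partner genes 2 passed, 0 to 4 without single libraries and 0 without both tumors.

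No label says that a replicate number links tumors, and deviations of same-numbered tumors correlated at 0.04, -0.27 and -0.42. With the replicate block 0 genes passed, among them 0 potassium channel genes and 0 transport and partner genes, a fit with fewer residual degrees of freedom.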
